A study of Homo sapiens with 6 samples.

Results

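The classic target genes of YAP and TEAD were followed through the ATAC-seq peaks of HLF cells, an established human liver cancer line. They were 10 genes: CCN1, CCN2, ANKRD1, AXL, LATS2, AJUBA, F3, TGFB2, NUAK2 and CRIM1. A site was assigned to a gene when its strongest summit lay within 1 kb of any annotated transcription start of that gene, in the gene body or within 50 kb of the gene (GENCODE release 44, hg38). This gave 256 sites of the 166021 into which the peaks of all libraries merged, of which 20 were promoter sites, 211 were distal sites more than 1 kb from every start of a gene that codes for a protein or a long noncoding RNA, and 25 lay at the start of another gene. Cells had received DMSO, the vehicle, or 5 μM SNDX-5613, a small molecule that keeps menin from binding MLL1, with 3 libraries per group and the same batch in all labels. The labels give 24 h of treatment whereas the study's methods describe a longer one for this assay, so the duration is uncertain. The line was not edited, and both arms were the same cultured cells. In this assay the Tn5 transposase cuts DNA that is free of nucleosomes, and a peak is a position where many such cuts were sequenced. In bulk nuclei, fewer cells with an open site and less opening per cell cannot be told apart.

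YAP and TAZ are transcriptional coactivators that bind DNA through the TEAD factors, often at enhancers that also hold AP-1. The Hippo kinases keep them out of the nucleus when cells are crowded or soft substrates leave them without tension. In liver cells the pathway limits organ size, and its target genes are widely read as a measure of YAP activity. The question was whether the promoter and distal sites of these genes ranked higher after menin inhibition.

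The letters of the sites on which the results turn are given first, because they hold the motifs that the results refer to. The promoter stretches are the 250 bases before the RefSeq start (GRCh38.p14), on the strand of the gene, at chr6:131951373-131951622 (CCN2), chr10:90921088-90921337 (ANKRD1) and chr1:205321746-205321995 (NUAK2). Capitals mark CATTCC, the core of the TEAD site, in either orientation (GGAATG on the opposite strand), and TGACTCA, the AP-1 site. CCN2 and ANKRD1 are shown because their promoter sites ranked higher in SNDX-5613, and NUAK2 because it carries the same core without ranking higher.
CCN2 promoter: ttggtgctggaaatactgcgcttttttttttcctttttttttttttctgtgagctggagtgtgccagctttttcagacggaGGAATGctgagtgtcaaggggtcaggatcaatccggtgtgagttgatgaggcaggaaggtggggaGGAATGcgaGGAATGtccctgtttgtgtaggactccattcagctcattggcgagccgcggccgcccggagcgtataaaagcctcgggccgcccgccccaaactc
ANKRD1 promoter: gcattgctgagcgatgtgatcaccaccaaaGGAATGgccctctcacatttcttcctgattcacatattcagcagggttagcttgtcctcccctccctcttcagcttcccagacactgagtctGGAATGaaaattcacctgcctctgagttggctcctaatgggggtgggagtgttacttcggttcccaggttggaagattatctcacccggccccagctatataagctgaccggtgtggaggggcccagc
NUAK2 promoter: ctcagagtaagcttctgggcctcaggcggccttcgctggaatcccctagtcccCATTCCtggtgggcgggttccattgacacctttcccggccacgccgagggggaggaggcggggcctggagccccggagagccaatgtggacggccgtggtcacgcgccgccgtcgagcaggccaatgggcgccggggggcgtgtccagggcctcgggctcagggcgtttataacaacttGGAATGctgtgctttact

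The 3 cores of CCN2 began 169, 104 and 95 bases before the start, those of ANKRD1 220 and 128 bases before it, and those of NUAK2 197 and 18 bases before it. NUAK2 also held CCAAT, the core of the NF-Y site, 117 and 76 bases before its start, and CCN2 held the same core on the opposite strand 59 bases before its own. The promoter table held 8 of the 10 genes with 10 starts, and CCN1 and CRIM1 were not matched. Of the 10 starts, 6 had the TEAD core in this stretch, against 11.9% of the 35116 promoters in the table, while 1 had the AP-1 site (4.20%) and 3 had the NF-Y core (32.0%). The distal sites below are 201 bases centred on the strongest summit, on the plus strand of hg38, at chr1:85607332-85607532 (26.7 kb downstream of the CCN1 start), chr19:41176216-41176416 (42.9 kb upstream of AXL), chr1:218489107-218489307 (144 kb downstream of the TGFB2 start) and chr2:36568611-36568811 (213 kb downstream of the CRIM1 start). They are shown because their ranks or summit heights differed between the groups in at least 1 of the analyses given here.
CCN1 distal: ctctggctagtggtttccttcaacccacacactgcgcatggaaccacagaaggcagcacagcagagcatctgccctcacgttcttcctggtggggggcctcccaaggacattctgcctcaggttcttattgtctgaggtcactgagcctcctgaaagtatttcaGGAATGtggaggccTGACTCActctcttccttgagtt
AXL distal: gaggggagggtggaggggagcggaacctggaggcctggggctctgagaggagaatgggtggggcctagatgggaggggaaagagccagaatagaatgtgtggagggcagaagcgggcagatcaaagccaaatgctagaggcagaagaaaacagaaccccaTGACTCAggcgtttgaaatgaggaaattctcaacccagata
TGFB2 distal: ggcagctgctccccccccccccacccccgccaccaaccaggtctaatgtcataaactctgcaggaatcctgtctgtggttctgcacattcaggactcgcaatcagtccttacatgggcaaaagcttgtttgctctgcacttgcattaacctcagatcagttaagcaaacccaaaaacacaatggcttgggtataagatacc
CRIM1 distal: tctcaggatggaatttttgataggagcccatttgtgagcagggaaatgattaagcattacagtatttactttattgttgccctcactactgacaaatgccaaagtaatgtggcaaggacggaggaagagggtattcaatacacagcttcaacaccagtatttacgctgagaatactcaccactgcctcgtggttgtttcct

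The CCN1 site had a TEAD core 64 bases and an AP-1 site 78 bases to the right of its summit, and the AXL site had an AP-1 site 60 bases to the right. The TGFB2 and CRIM1 windows held neither. The TGFB2 window had a run of C near its left end, and its part in the values was not tested.

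Depth differed between the libraries, and SNDX-5613 replicate 3 stood apart. Its genome-wide background pileup was 16.2% of the median of the other libraries (0.211 against 0.997 to 1.51), and it held 40568 regions against 88026 to 113675. The lowest pileup that was called there was 3, against 6 or 7 elsewhere, so values of sites in this library rest on few reads or fragments. For most of the sites named below the call or the log2 difference is therefore also given without it. Among cell type markers, VIM, ZEB1, SNAI2, CDH2 and FN1 had a promoter peak in all 6 libraries, whereas the hepatocyte genes ALB, APOA1 and HNF4A had none and TTR and AFP had one in 5. The leukocyte genes PTPRC and CD3E and the endothelial gene PECAM1 had none, and CDH5 had one in 1 library. Of the 5 hepatocyte genes, 3 thus lacked a called promoter peak in every library of a line labelled as a liver tumor.

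All 10 genes had an open promoter in every library, but only a minority of their other sites were shared. A peak was present in all 6 libraries at 67 of the 256 sites (26.2%, against 20.1% of all sites), which comprised 11 promoter sites, 42 distal sites and 14 sites at the start of another gene. A further 52 of the 256 sites had a peak in each of the other libraries and lacked one only in SNDX-5613 replicate 3, against 26581 of all 166021 sites. At 77 of the 256 sites the peak was called in a single library, against 60139 of all 166021 sites. CRIM1, the longest gene, held 65 sites, of which 49 lay in its gene body away from its starts, and F3 held the fewest with 9. Of the distal sites 148 were intronic, 55 intergenic and 8 exonic.

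No site was gained, meaning that all 3 SNDX-5613 libraries had a peak there and the DMSO libraries none, a pattern found at 0.147% of all sites, and 4 were lost in the opposite sense, a pattern found at 1.18% of all sites. The lost sites were an AJUBA promoter site at an inner start (chr14:22974625-22974830, in an exon), a site upstream of AJUBA in an exon of C14orf93, a site in an intron of TGFB2 and a site in an intron of RPP30 near ANKRD1. These were low, with DMSO pileups of 17, 27 and 33 at the AJUBA promoter site and 6, 13 and 9 at the RPP30 site. The one in C14orf93 was the highest of the 4, with pileups of 42, 67 and 58. Absence in SNDX-5613 replicate 3 alone was common, so these calls rest on the other SNDX-5613 libraries. Conversely, 3 distal sites lacked a peak in DMSO and had one in 2 SNDX-5613 libraries, 1 each near ANKRD1, TGFB2 and NUAK2. How common this pattern is over all sites was not counted. In the consensus sets that the authors built for each group, 139 sites were covered in both (54.3%, against 46.6% of all sites), 26 in DMSO alone (10.2%, against 6.16%) and 8 in SNDX-5613 alone (3.13%, against 5.85%). Over all sites the shares covered in a single group were thus close to each other, whereas at these genes more sites were covered in DMSO alone. The part of the shallow library in these counts was not tested.

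The levels of the promoters among themselves were read from the summit pileup, the number of reads or fragments over the summit, which was solved from the fold and p of each peak and scaled to a common depth. In DMSO the strongest promoter site was highest for NUAK2 (171 ± 11.9, SD, n = 3) and CCN1 (165 ± 17.5), then CRIM1 (137 ± 21.95), AJUBA (126 ± 5.05), LATS2 (126 ± 9.63) and CCN2 (123 ± 5.12). AXL (92.3 ± 7.14) and F3 (89.5 ± 7.73) followed, then ANKRD1 (77.6 ± 1.87) and TGFB2 (66.8 ± 3.88). Neighbours from NUAK2 down to CCN2 overlapped in their replicates, as did AXL with F3. CCN2 with AXL, F3 with ANKRD1 and ANKRD1 with TGFB2 did not overlap. The rank by −log10 p gave another order, because p is set against the local background. CCN1 lay at the 91.7th percentile of all shared sites by pileup and at 58.8 by −log10 p.

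**Figure D1:**
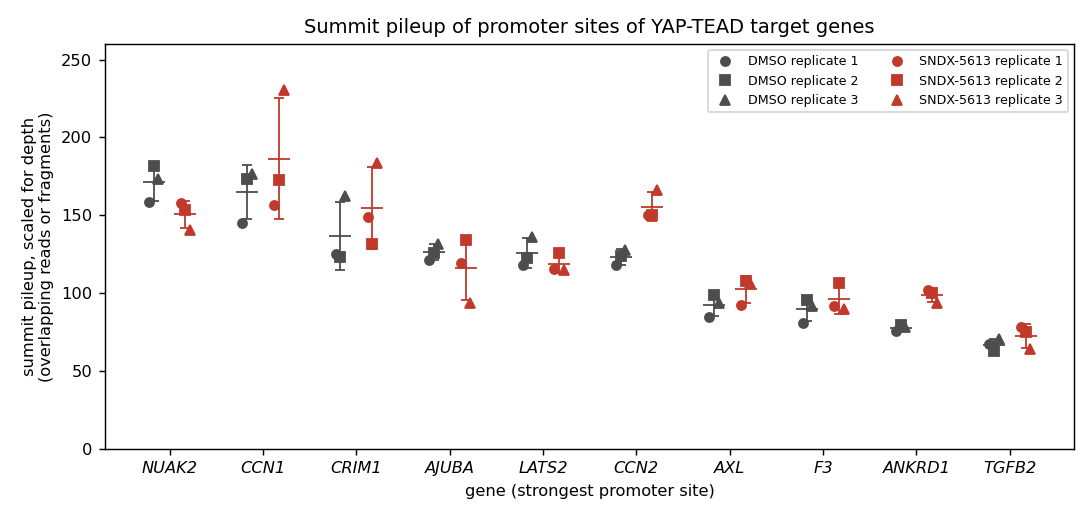
Scaled summit pileup (y axis, overlapping reads or fragments) at the strongest promoter site of each gene (x axis, ordered by the DMSO mean). Points are libraries, horizontal bars are means and vertical bars are SD (n = 3); the SNDX-5613 points lie above all DMSO points for CCN2 and ANKRD1 and narrowly below them for NUAK2, and CCN1 has its highest value, 230.1, in the shallow SNDX-5613 replicate 3.

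For the comparison of ranks, −log10 p was turned into a percentile within each library over the 33405 sites that every library shared, and a site was called higher when all 3 SNDX-5613 percentiles lay above all 3 DMSO percentiles. The promoter sites of CCN2 and ANKRD1 were called higher and no promoter site was called lower. This was 2 of 11 promoter sites higher (18.2%), against 7.43% of all promoter sites, and 0 lower, against 8.13%. With so few sites the share is coarse, and a single call fewer would bring it close to that of all promoter sites. With 3 against 3 libraries an exact two-sided permutation test cannot go below p = 0.1, which is the value both sites reached.

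CCN2, a secreted matricellular protein also known as CTGF, is among the most used readouts of YAP. Its promoter site (chr6:131949952-131951570, with its summit 51 bp upstream of the start and inside an intron of LINC01013) had percentiles of 54.7, 57.4 and 56.2 in DMSO and 69.8, 67.2 and 77.2 in SNDX-5613. Its scaled pileups were 118, 124 and 128 in DMSO and 150.3, 150.3 and 166 in SNDX-5613. The groups did not overlap by either measure, and the highest value by both was that of the shallow SNDX-5613 replicate 3. On the log2 scale the pileup was higher by 0.34 ± 0.106 (SE, 95% interval 0.11 to 0.56), with an adjusted p of 0.114 from limma over all shared sites, which did not pass 0.05. Without SNDX-5613 replicate 3 the difference was 0.29 (adjusted p = 0.132, limma). The ranks still did not overlap, but the mean percentile was then higher in SNDX-5613 by 7.62 in place of 15.3. This is the site with the TEAD cores shown above, 2 of which lay within 100 bp of the summit.

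ANKRD1, an ankyrin repeat protein of the nucleus and the sarcomere, showed a difference of the same size. The percentiles of its promoter site (chr10:90920998-90921747, with its summit 227 bp upstream of the start) were 64.0, 67.2 and 64.9 in DMSO and 77.0, 74.8 and 73.4 in SNDX-5613. Its scaled pileups were 75.5, 79.2 and 77.9 in DMSO and 102, 99.9 and 93.8 in SNDX-5613, again with no overlap. The log2 difference was 0.35 ± 0.127 (SE, 95% interval 0.08 to 0.61, adjusted p = 0.181, limma), and without SNDX-5613 replicate 3 it was 0.38 (adjusted p = 0.0724), with a mean percentile higher by 6.08 in place of 9.71. When percentiles were taken over every region of each library's own list in place of the shared sites, neither call held, and the mean percentile of SNDX-5613 minus that of DMSO was 2.29 for CCN2 and −0.63 for ANKRD1. On that scale the shallow library ranks a site among its 40568 regions and the others among at least 88026, so a given site starts from another set of peaks in each. Of all shared sites, 0.997% were called higher there, against 8.54% as reported. For ANKRD1 the difference in the authors' fold enrichment was also smaller, at 0.09 on the log2 scale.

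**Figure D2:**
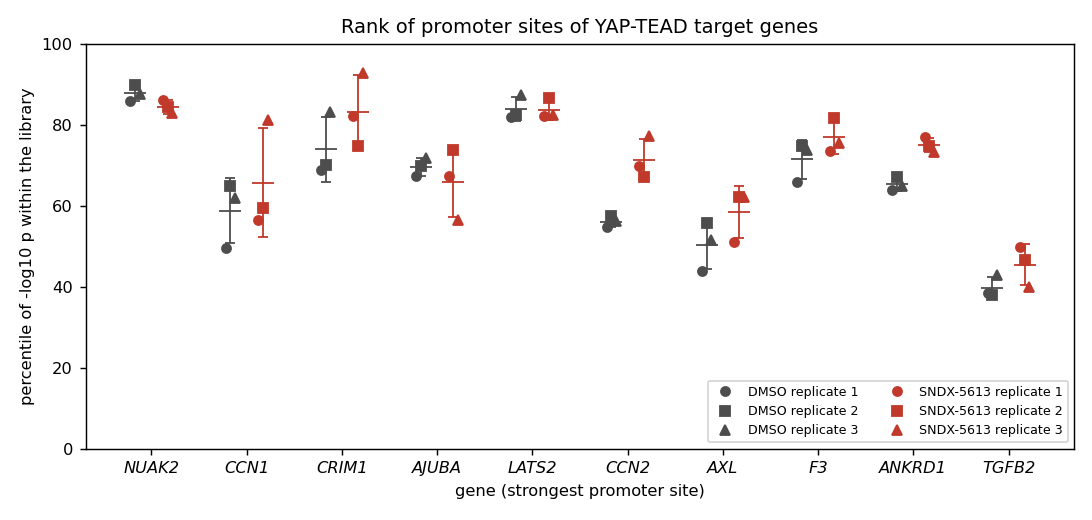
Percentile of −log10 p (y axis, 0 to 100, among the sites shared by all 6 libraries) at the strongest promoter site of each gene (x axis, same order as in the plot of pileups). Points are libraries, horizontal bars are means and vertical bars are SD (n = 3); only CCN2 and ANKRD1 have every SNDX-5613 point above every DMSO point.

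CCN1, the matricellular protein also known as CYR61, did not follow CCN2. Its promoter site (chr1:85580507-85581525, with its summit 69 bp upstream of the start) had percentiles of 49.7, 64.9 and 61.9 in DMSO and 56.6, 59.4 and 81.1 in SNDX-5613. The one high value came from the shallow SNDX-5613 replicate 3, while the other SNDX-5613 libraries lay within the DMSO range. The log2 difference in pileup was 0.16 ± 0.125 (SE, 95% interval −0.10 to 0.42) with all libraries and 0.00 without that one (adjusted p = 0.992, limma).

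At the promoters of AXL, F3, TGFB2 and CRIM1, which encode membrane or secreted proteins, the percentiles of the groups overlapped. AXL, a receptor tyrosine kinase, had an open site at each of 2 starts: at the canonical start the percentiles were 44.2, 46.0 and 40.6 in DMSO and 49.98, 36.2 and 23.3 in SNDX-5613, and at the inner start, 6658 bp into the gene, they were 43.8, 55.9 and 51.6 against 51.1, 62.2 and 62.3. The log2 differences were −0.20 ± 0.150 at the canonical and 0.15 ± 0.128 at the inner start (SE), of opposite sign and each with an interval that included 0. Without SNDX-5613 replicate 3 they were −0.08 and 0.12. F3, the tissue factor that starts coagulation, had 66.0, 74.8 and 73.8 in DMSO and 73.6, 81.8 and 75.6 in SNDX-5613, with a log2 difference of 0.10, and 0.15 without SNDX-5613 replicate 3. TGFB2, a cytokine of the TGF-β family, had the lowest promoter percentiles of the list in DMSO, 38.6, 38.0 and 42.9 in DMSO and 49.8, 46.6 and 39.9 in SNDX-5613. Its value overlapped DMSO only in the shallow library, and without that library the site was called higher, with a log2 difference of 0.20 (adjusted p = 0.496, limma). CRIM1, a membrane protein that binds BMPs, had 68.8, 70.1 and 83.2 in DMSO and 82.3, 74.7 and 92.9 in SNDX-5613, with a log2 difference of 0.17 ± 0.131 that was 0.05 without SNDX-5613 replicate 3. The study's methods describe each replicate as a dish that was split between the arms, although the labels do not tie a number to a dish. When the libraries were compared within replicate numbers, the inner start of AXL, F3 and CRIM1 were called higher as well as CCN2 and ANKRD1, which made 5 of the 11 promoter sites, against 16.2% of all sites.

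At the genes that act back on the pathway the percentiles of the groups overlapped. LATS2, a kinase that phosphorylates YAP and is itself a target, had percentiles of 81.9, 82.6 and 87.3 in DMSO and 82.2, 86.6 and 82.5 in SNDX-5613. AJUBA, a LIM domain protein that holds LATS kinases back, had 67.4, 69.9 and 71.8 against 67.4, 73.7 and 56.6, where the low value was the shallow library. NUAK2, a kinase of the AMPK family, had 86.0, 89.9 and 87.6 against 86.2, 84.4 and 82.9. Its scaled pileups, 158.3, 182 and 173 in DMSO and 157.8, 153 and 141 in SNDX-5613, did not overlap by a narrow margin, with SNDX-5613 the lower group. The log2 differences in pileup were −0.08, −0.14 and −0.18, with 95% intervals of −0.32 to 0.16, −0.41 to 0.13 and −0.40 to 0.03. Without SNDX-5613 replicate 3 the differences were −0.05, 0.01 and −0.13, so that of AJUBA rested on the shallow library. Whether they differ from those of CCN2 and ANKRD1 was not tested.

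Over the 11 promoter sites, limma called 0 at an adjusted p under 0.05 (1.63% of all sites were called higher and 0.419% lower). At an unadjusted p under 0.05 it called 2 higher, CCN2 and ANKRD1, and 0 lower, against 8.97% and 6.88% of all sites. The log2 difference was positive at 7 sites and negative at 4, with a median of 0.11 against −0.05 for all promoter sites. Without SNDX-5613 replicate 3 a further 4 promoter sites could be compared. Of these 15, 3 were called higher by rank (CCN2, ANKRD1 and TGFB2, against 13.1% of all promoter sites) and 1 lower (an AXL site 1283 bp into the gene, against 14.0%), and limma again called 0, with 2 at an unadjusted p under 0.05. The median log2 difference was then 0.05.

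**Figure D3:**
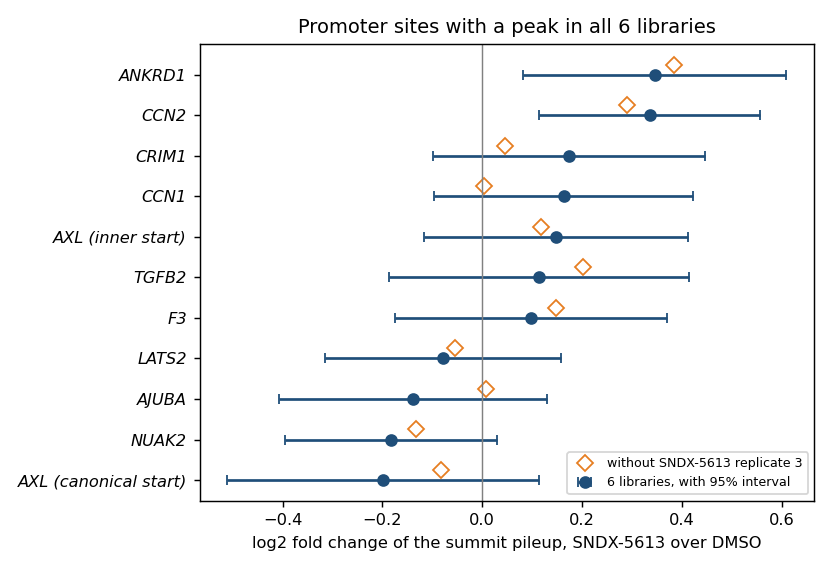
Log2 fold change of the scaled summit pileup, SNDX-5613 over DMSO (x axis), at the 11 promoter sites shared by the 6 libraries (y axis). Filled points with bars are limma estimates with 95% intervals and open diamonds are estimates without SNDX-5613 replicate 3; only the intervals of ANKRD1 and CCN2 lie above 0, and CCN1 and CRIM1 move close to 0 without that library.

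Away from the promoters, few distal sites of the 10 genes were called in either direction. Among the 42 present in all libraries, 3 were called higher (7.14%, against 9.41% of all distal sites) and 1 lower (2.38%, against 8.04%). limma called 0 in either direction, and at an unadjusted p under 0.05 it called 4 higher (9.52%, against 8.97% of all sites) and 1 lower (2.38%, against 6.88%). The log2 differences were positive at 26 sites and negative at 16, with a median of 0.09 against 0.04 over all distal sites. By gene, the median was highest for F3 (0.37, a single site), TGFB2 (0.34, 6 sites) and ANKRD1 (0.32, 3 sites) and lowest for AXL (−0.17, 3 sites). The 12 sites of CRIM1 had a median of −0.04.

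Both TGFB2 sites that were called higher lay downstream of the gene and close to each other, in an intron of the noncoding gene LINC02869. The first (chr1:218487549-218488438) was low, with scaled pileups of 22.5, 14.6 and 20.9 in DMSO and 29.3, 39.4 and 34.1 in SNDX-5613. The second (chr1:218488678-218489320) had 34.2, 30.6 and 29.2 in DMSO and 49.6, 42.3 and 63.9 in SNDX-5613. In both, every SNDX-5613 library was above every DMSO library. The log2 differences were 0.84 ± 0.228 and 0.71 ± 0.188 (SE), with adjusted p-values of 0.0595 and 0.0520 (limma). Among the shared distal sites only 1 near ANKRD1, 39.5 kb upstream of its start, lay between them, at 0.72 ± 0.314 with overlapping ranks. Without SNDX-5613 replicate 3 the differences at both TGFB2 sites were 0.84 (adjusted p = 0.0226) and 0.55 (adjusted p = 0.0781), and with the replicate number as a block the adjusted p-values were 0.0409 and 0.0307 (limma). When fold enrichment was ranked in place of p, the groups overlapped at both sites, and the log2 differences in fold enrichment were 0.53 and 0.36 (adjusted p = 0.660 and 0.677, limma). On log2 of fold enrichment limma called 0% of all shared sites in either direction. The start of LINC02869 itself was also called higher by rank, with percentiles of 40.7, 47.6 and 51.6 in DMSO and 55.1, 52.6 and 63.0 in SNDX-5613, and without SNDX-5613 replicate 3 it was still called higher, with a log2 difference of 0.16. These sites are nearer to LINC02869 than to TGFB2, and which gene they act on was not tested.

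CCN1 had the one called distal site with both a TEAD core and an AP-1 site beside its summit, the sequence given above. It lies in intergenic DNA 26.7 kb downstream of the start (chr1:85606965-85607748) and is the strongest distal site of the gene. Its percentiles were 68.7, 74.9 and 76.0 in DMSO and 85.5, 80.7 and 80.0 in SNDX-5613, and its scaled pileups were 118, 132 and 136 against 168, 152 and 141. The groups did not overlap, but the highest DMSO and the lowest SNDX-5613 pileup were close. The log2 difference was 0.25 ± 0.111 (SE, adjusted p = 0.270, limma) and without SNDX-5613 replicate 3 it was 0.32 (adjusted p = 0.0905). CCN1 thus had a higher rank at a distal site and not at its promoter, and the difference between these 2 sites was not tested. CCN2 was called higher at its promoter, and none of its 3 shared distal sites was called (median log2 difference 0.03). Its strongest distal site, 3.54 kb upstream of the start with a TEAD core and an AP-1 site of its own, had percentiles of 60.9, 59.7 and 59.2 in DMSO and 60.8, 33.7 and 11.8 in SNDX-5613. The SNDX-5613 values spread widely, from the DMSO level down to the lowest in the shallow library, and the log2 difference of −0.45 ± 0.159 (SE) did not pass limma (adjusted p = 0.168). Without that library it was −0.24.

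The site called lower lay 27.1 kb downstream of the NUAK2 start, toward TMCC2, with percentiles of 28.2, 31.9 and 44.6 in DMSO and 27.2, 27.0 and 16.7 in SNDX-5613. Its pileup hardly differed (log2 difference −0.13 ± 0.150, SE), and without the shallow library the ranks overlapped. The strongest distal sites of ANKRD1, AXL, LATS2, AJUBA, F3, TGFB2, NUAK2 and CRIM1 were not called. Their log2 differences ran from −0.34 ± 0.180 (SE) at AXL to 0.37 ± 0.218 at F3, and each 95% interval included 0. At AXL and CRIM1 (−0.30 ± 0.163) the low values came from SNDX-5613 replicate 3, and without it the differences were −0.10 and −0.06.

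The 5 deeper libraries shared more of the distal sites, and there larger shares were called in both directions. Of 85 distal sites, 16 were called higher (18.8%, against 14.8% of all distal sites) and 12 lower (14.1%, against 14.6%). limma called 2 higher, against 2.31% of all sites, and 1 lower, against 1.27%. The median log2 difference was 0.02, both for these sites and over all distal sites. TGFB2 had 5 of the sites called higher and 2 of those called lower, CRIM1 had 4 and 5, and AJUBA had 0 and 3. Sites of the same gene were thus called in both directions at TGFB2 and CRIM1, and also at CCN2 (2 higher and 1 lower) and AXL (1 and 1). Medians by gene ran from −0.24 (AJUBA, 4 sites) to 0.35 (ANKRD1, 3 sites).

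Besides the first TGFB2 site, limma called a site near AXL and one near CRIM1 in these libraries. The AXL site (chr19:41175909-41176538) is intergenic, 42.9 kb upstream of the AXL start and 16894 bp from the start of CYP2S1, a cytochrome P450 gene. Its scaled pileups were 18.0, 24.6 and 14.6 in DMSO and 40.6 and 34.3 in SNDX-5613, and no peak was called in SNDX-5613 replicate 3. Every SNDX-5613 value was above every DMSO value, and the log2 difference was 1.00 ± 0.229 (SE, adjusted p = 0.00371, limma), the largest of the distal sites. The CRIM1 site (chr2:36568593-36568959) lies in an intron of the neighbouring gene FEZ2. Its scaled pileups were 27.0, 25.3 and 16.7 in DMSO, 12.02 and 10.9 in SNDX-5613 replicates 1 and 2, and 25.6 in replicate 3. Without replicate 3 the log2 difference was −0.97 ± 0.262 (SE, adjusted p = 0.0192, limma), whereas with it the value was −0.59 and the groups overlapped (adjusted p = 0.365). A pileup of 6 lay behind the value in that library. Counted at the starts of other genes within the same windows, FEZ2 and HNRNPUL1 were called lower by rank and LINC02869 higher, among 14 shared sites. This was 14.3% lower, against 8.13% of all promoter sites, and 7.14% higher, against 7.43%. These rank calls also held without SNDX-5613 replicate 3. limma called 0 of the 14 sites, with 3 lower at an unadjusted p under 0.05 (21.4%, against 6.88% of all sites). Without SNDX-5613 replicate 3, 0 of 19 such sites were lower at that unadjusted threshold. By rank, 5 of these 19 were then called higher (26.3%, against 13.1% of all promoter sites) and 3 lower (15.8%, against 14.0%).

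**Figure D4:**
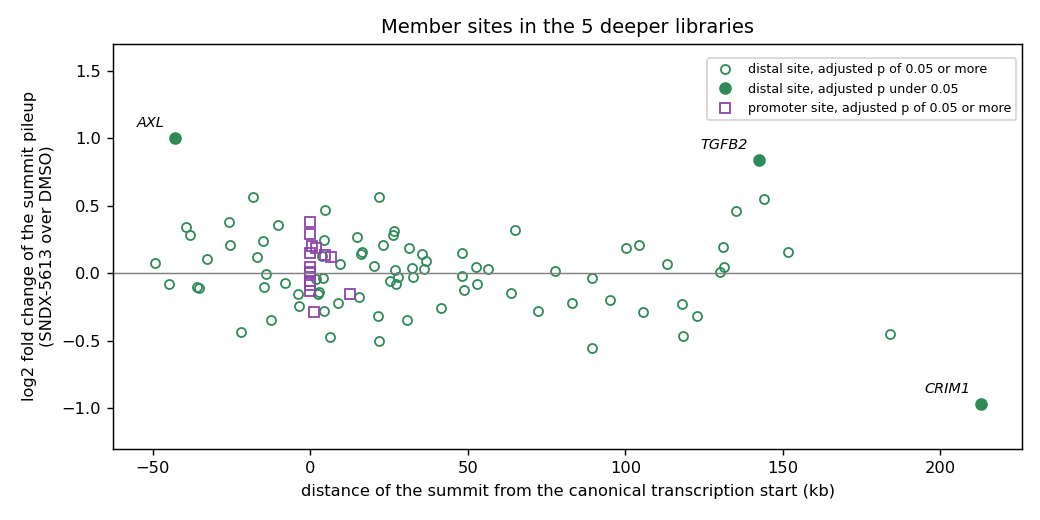
Log2 fold change of the scaled summit pileup, SNDX-5613 over DMSO without SNDX-5613 replicate 3 (y axis), against the distance of the summit from the canonical start of the gene (x axis, kb, negative upstream), for the 85 distal and 15 promoter sites with a peak in the other 5 libraries. Filled circles are the 3 distal sites with an adjusted p under 0.05 (limma), at 1.00, 0.84 and −0.97; promoter sites range from −0.29 to 0.38.

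The TEAD core was found at a larger share of the promoter sites of these genes than of all promoter sites, and at a similar share of their distal sites. Within 100 bp of the summit, on either strand, 7 of 20 promoter sites held CATTCC (35%, against 10.4% of all promoter sites), and 5 of the 11 shared ones did (45.5%, against 8.24%). These 5 were CCN1, CCN2, ANKRD1, LATS2 and NUAK2, of which 2 were called higher. Of the 211 distal sites 36 held it (17.1%, against 16.7% of all distal sites), and of the 42 shared ones 14 did (33.3%, against 20.7%). TGACTCA was found at 2 of 11 shared promoter sites, F3 and the inner start of AXL (18.2%, against 5.13%), and at 12 of 42 shared distal sites (28.6%, against 22.6%). CCAAT was found at 2 of 11 promoter sites, CCN2 and NUAK2 (18.2%, against 31.5%), and at 6 of 42 distal sites (14.3%, against 23.05%). Each motif was counted on its own and matches could share bases. The genes were picked as targets of TEAD, so these shares describe them and were given no test, and a match is not evidence of binding.

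Other genes of the pathway were read the same way, from lists written with earlier results of these data known. Among 13 further YAP-TEAD targets, 12 had a shared promoter site, of which AMOTL2, CCDC80 and PTPN14 were called higher and MYOF lower (25%, against 7.43% of all promoter sites, and 8.33%, against 8.13%), with a median log2 difference of −0.07 against 0.13 for the strongest promoter sites of the 10 classic targets. The calls of AMOTL2 and PTPN14 went with small differences in pileup (0.06 and 0.03 on the log2 scale). Among 15 Hippo core and effector genes, all with a shared promoter site, 0 were called higher and 1 lower (6.67%). This was WWTR1, which encodes TAZ, the partner of YAP. Its percentiles were 83.2, 79.5 and 82.6 in DMSO and 72.3, 72.9 and 71.1 in SNDX-5613, with no overlap, and its log2 difference was −0.37 ± 0.117 (SE, adjusted p = 0.114, limma), which was −0.31 (adjusted p = 0.113) without SNDX-5613 replicate 3. YAP1 itself had 58.7, 60.1 and 63.9 against 69.8, 58.1 and 70.5, which overlapped, and a log2 difference of 0.04 that was 0.02 without that library. The 5 calls at these promoters held without it, and IGFBP3 and SAV1 were then also called lower. Over the 18824 promoter sites shared by the 5 deeper libraries, 13.1% were then called higher and 14.0% lower. In both lists limma called 0 promoter sites at an adjusted p under 0.05. At an unadjusted p under 0.05 it called 2 of 12 (NT5E and MYOF) and 1 of 15 (WWTR1), all lower, against 6.88% of all sites. It called 0 higher, against 8.97%. The log2 differences of NT5E and MYOF were −0.38 and −0.35, and without SNDX-5613 replicate 3 they were −0.21 and −0.37. At the 55 shared distal sites of each list, 8 were called higher (14.5%, against 9.41% of all distal sites) and 4 lower (7.27%, against 8.04%) near the further targets, and 2 higher (3.64%) and 8 lower (14.5%) near the Hippo genes. Without SNDX-5613 replicate 3, where more sites are called by construction, the same sites gave 13 higher and 7 lower, and 7 higher and 11 lower. The shared distal sites of the 10 classic targets then gave 8 higher and 2 lower. Over the 41161 distal sites shared by the 5 deeper libraries, 14.8% were called higher and 14.6% lower. That larger set also holds sites without a peak in SNDX-5613 replicate 3, so it is not matched to these counts.

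Of 12687 protein-coding genes with a shared promoter site, those whose percentiles over the 6 libraries were nearest to CCN2 by Euclidean distance were C3orf33 (6.05 percentile points), RNF150 (6.37) and CKLF (7.75). The nearest to CCN1 were SHISA4 (9.10), MSRA (9.17) and USP43 (9.28). All of these genes had their highest percentile in SNDX-5613 replicate 3, as did CCN1 and CCN2. They were chosen by these same percentiles, so this is not a separate result.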

How the data were processed

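ATAC-seq peaks of 6 HLF libraries were analysed, 3 treated with DMSO and 3 with SNDX-5613, grouped and numbered by the labels. Per the study's methods, reads were aligned to hg38 with Bowtie2 (2.3.4.1 in the submitters' processing notes, with Trim Galore 0.6.7 and Picard 2.20.0) and duplicates were marked. Peaks have the layout of MACS2 and were called in each library without pooling. A shift of reads for Tn5, the removal of duplicates and a blacklist were not given in the sources used here. The deposited lists give for each summit the authors' fold enrichment over the local background, which is a ratio, −log10 of the authors' p and of their q value, and where the summit lies. A deposited score per summit was left aside, and of the 2 deposited consensus sets, which carry a combined score, only the regions were used.

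Summits sharing a region were reduced to the strongest, and regions of the 6 libraries on chromosomes 1 to 22, X and Y were merged into sites where they shared 1 bp or more. Ranks were percentiles of −log10 p within a library over the sites shared by all 6. The summit pileup was solved as a whole number (tolerance 0.02) from fold and p, which gave a value for 100% of summits in each library and for 2.79% to 9.54% when p was shuffled between summits. In SNDX-5613 replicate 3, 885 of 47714 summits allowed another solution, and the larger was kept. Pileups were scaled by the median ratio (factors of 0.235 in SNDX-5613 replicate 3 and 1.11 to 1.50 elsewhere) and tested with limma 3.58.1 (lmFit, eBayes with trend) over all shared sites, with Benjamini-Hochberg adjustment and a threshold of 0.05. Read counts were not analysed here, and no count model was fitted. For single sites, group means of the percentile were compared by an exact permutation test (two-sided). The steps were tested on simulated data. Python packages were numpy 2.4.6, pandas 2.3.3, scipy 1.17.1 and pysam 0.24.0.

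The text names the strongest promoter and distal site of each gene, every other site called by rank, by limma or by presence, the called genes of the 2 further lists, the pathway genes YAP1 and WWTR1 and, for CCN1 and CCN2, the 3 genes nearest in rank. The site near ANKRD1 named beside the TGFB2 sites was chosen after its values were seen. The genes and lists were chosen with earlier results of these data known. The alternatives were other measures to rank, other sets to rank over, a −log10 q of at least 3, 50% overlap, 3 kb promoters, 25 kb around genes, quantile scaling, array weights, log2 of fold enrichment, other motif windows, a replicate block and leaving out each library. Ranking the pileup was chosen after seeing the data. The study describes each replicate as 1 dish split between the arms, and no label says that libraries came from separate cultures, so p-values measure only the spread between these libraries.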

Additional observations from a re-analysis of the deposited data

How the results depend on the processing

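The values behind these calls come from peak lists, so sites without a peak could not be compared, and SNDX-5613 replicate 3, at 16.2% of the others' median background, limits both the number of sites and the precision of its own values. With fewer libraries, ranks of 3 against 2 fail to overlap more often by construction, and more sites are shared.

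The promoter sites called higher by rank numbered 2, and this was 0 with percentiles over all regions of each list. Over all sites that setting called 0.997% higher, against 8.54% as reported. The number was 1 when a region had to cover 50% of a site, where the CCN2 site no longer had a region in each library. Among 5 such sites that was 20%, against 8% of all sites. The percentile difference of ANKRD1 turned negative with percentiles over all regions (−0.63), that of CCN2 was 2.29 there, and that of ANKRD1 was 7.57 with overlapping groups when fold enrichment was ranked, where the groups also overlapped at both TGFB2 distal sites. For distal sites, 3 were called higher and 1 lower. Over all regions 0 were called higher, where 0.997% of all sites were. Ranking the pileup gave 5 higher (11.9%, against 9.89% of all sites) and 0 lower (against 9.55%). Windows of 25 kb gave 1 higher (3.57%, against 8.54%). A −log10 q of at least 3 gave 1 higher (2.63%, against 8.42%) and 2 lower (5.26%, against 7.66%). The 50% overlap gave 1 higher (7.14%, against 8%). limma called 0 distal sites as reported. With array weights it called 2 of 42 higher (both TGFB2 sites) and 1 lower (the CRIM1 site in FEZ2). Over all sites these weights called 4% higher and 1.59% lower. With the stricter q limma called 1 of 38 higher (the second TGFB2 site, adjusted p = 0.0398), against 1.72% of all sites. Promoter calls by limma stayed at 0 in all of these, with CCN2 at adjusted p-values of 0.0664 to 0.665 and ANKRD1 at 0.0601 to 0.820. The upper ends came from log2 of fold enrichment, where limma called 0% of all shared sites in either direction. The share of distal sites with the TEAD core was 10.9% within 50 bp and 31.3% within 250 bp of the summit. The cause of these shifts was not tested.

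Leaving out 1 library in turn gave 2 to 4 promoter sites higher (4 without DMSO replicate 3 or SNDX-5613 replicate 1) and 0 to 2 lower (2 without SNDX-5613 replicate 1, 1 without DMSO replicate 1 or SNDX-5613 replicate 3). It gave 4 to 16 distal sites higher and 1 to 12 lower, both highest without SNDX-5613 replicate 3. Over all sites the same fits called 12.3% to 14.5% higher and 12.2% to 14.4% lower. Without DMSO replicates 1, 2 and 3 the distal counts were 4, 6 and 5 higher and 4, 1 and 3 lower, and without SNDX-5613 replicates 1 and 2 they were 8 and 7 higher and 3 lower each time. limma called 0 to 2 distal sites higher (2 without SNDX-5613 replicate 3, 1 without SNDX-5613 replicate 2) and 0 to 1 lower (1 without SNDX-5613 replicate 1, the upstream CCN2 site at −0.66 with an adjusted p of 0.0233, and 1 without SNDX-5613 replicate 3). Over all sites limma then called 0.658% to 2.31% higher and 0.0649% to 1.27% lower. Of 232 to 251 sites, 0 to 2 were gained (2 without SNDX-5613 replicate 3, 1 without replicate 2 of either group). There were 4 to 10 lost (10 without DMSO replicate 3 or SNDX-5613 replicate 1, 9 and 4 without SNDX-5613 replicates 2 and 3). These patterns are easier to meet there, where shares over all sites were not counted.

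The study's methods describe each replicate as a dish split between the arms, but the labels do not tie a replicate number to a dish, and the deviations of same-numbered libraries correlated at only 0.0242, 0.00339 and 0.0338 over the 33405 sites and DMSO replicate 2 correlated best with SNDX-5613 replicate 1 (0.0470). The comparison as reported therefore has no block. With the number as a replicate block, 5 promoter sites (45.5%) had a higher percentile within all 3 numbers, against 16.2% of all sites. So did 8 distal sites (19%), and 5 distal sites had a lower one (11.9%, against 16.5% of all sites). limma with this block called 0 promoter sites and 2 distal sites higher, both near TGFB2 (adjusted p = 0.0409 and 0.0307). It called 2.24% of all sites higher.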
